A study of Mus musculus with 14 samples.

Results

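MicroRNA miR-142 is made in blood cells as 1 hairpin, and each strand of that hairpin can give a mature microRNA, the 5p arm and the 3p arm. Both arms had an assay on the array card used in this study of mouse heart transplants, and these 2 assays, out of 375 microRNA assays on the card, are described here in all 14 arrays. They were chosen by name, as the detectors mmu-miR-142-3p and mmu-miR-142-5p, and not by a measured value. Each array measured 1 pool of RNA from 3 mice of 8 to 10 weeks of age, with 100 ng from each animal and 300 ng in total.

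Hearts were placed heterotopically, that is, at a site other than that of the recipient's own heart. Syngeneic grafts went from C57BL/6 donors to C57BL/6 recipients and are labelled as not rejecting, and allogeneic grafts went from BALB/c donors to C57BL/6 recipients and are labelled as rejecting. Whole grafts were taken on day 7 (3 syngeneic and 3 allogeneic pools, beside 1 pool of normal BALB/c hearts). Graft-infiltrating lymphocytes (GIL) were taken on day 5 (3 syngeneic and 3 allogeneic pools, beside 1 pool of PBMC, peripheral blood mononuclear cells, from C57BL/6 mice without a graft). The syngeneic hearts therefore differ from both other heart groups in donor strain, and strain and group cannot be told apart there. All RNA in a pool enters as a mixture, so the arrays show differences between pools and not between single animals. Whether the pools of a group were made from separate sets of animals is not stated in the sources used here, and p-values measure the spread between these pools.

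MicroRNAs are cut from a hairpin precursor, first by Drosha in the nucleus and then by Dicer in the cytoplasm, and 1 strand of the resulting duplex is usually kept by an Argonaute protein while the other is mostly degraded. Bases 2 to 8 of the kept strand, the seed, pair with target messenger RNAs and reduce their translation and stability. miR-142 is known as a microRNA of the haematopoietic lineage, abundant in lymphocytes and myeloid cells and low in solid tissue cells, and mice without it have defects in several immune cell types.

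The sequences are shown because the 2 assays read opposite strands of 1 short hairpin, and because the arms carry different seeds. They are RefSeq's sequences for assembly GRCm38.p6, matched by name (both assays matched, under the present names miR-142a-5p and miR-142a-3p). The capitals mark the seed in the mature sequences and the 2 mature arms in the hairpin.
miR-142a-5p: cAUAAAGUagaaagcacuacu
miR-142a-3p: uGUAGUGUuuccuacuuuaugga
Mir142 hairpin: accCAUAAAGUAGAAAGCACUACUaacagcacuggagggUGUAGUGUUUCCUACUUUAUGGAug

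The Mir142 hairpin lies on the plus strand at chr11:87756864-87756927 (GRCm38.p6) and is 64 bases long, within the antisense microRNA gene Mir142b and outside any protein-coding gene of the RefSeq table, where Tspoap1 begins after 1266 further bases. The 5p arm of 21 bases is at chr11:87756867-87756887 and the 3p arm of 23 bases at chr11:87756903-87756925, with 15 bases of loop between them. In the minimum free energy fold, 19 of the 21 bases of the 5p arm pair with the 3p arm. No other mature mouse sequence among the 1738 in the RefSeq table has the seed AUAAAGU or the seed GUAGUGU, so neither arm shares its seed with another listed microRNA. A further product is annotated from the opposite strand, miR-142b, at chr11:87756906-87756925 on the minus strand, and it is shown because it lies over the 3p arm.
miR-142b: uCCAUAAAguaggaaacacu
Its 20 bases are the exact reverse complement of bases within the 3p arm, and 16 of the 18 bases that can be set against the 5p arm are identical to it. Whether the 5p assay also reads miR-142b was not tested.

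The unit of the assay is the threshold cycle (Ct), the PCR cycle at which fluorescence crosses a set line, so that a Ct lower by 1 means about double the product for 1 assay. Both arms were detected on all 14 arrays (Ct under 35), and all 28 of 28 wells carried the software's mark as passed. The arrays detected between 228 and 260 microRNA assays in the heart table and between 161 and 221 in the table of GIL and PBMC. Pool 3 of the allogeneic GIL lay away from the rest: it gave 161 assays with a Ct under 35, and its mean Ct over the assays found in every array of that table was 27.95, and the differences, levels, list counts, arm gaps and nearest profiles in GIL are also given without it, the levels, list counts and nearest profiles by a choice made after seeing the data. Levels below are minus Ct relative to that mean (over 210 assays in hearts and over 137 in GIL and PBMC), on a log2 scale, so a difference of 1 is about 2-fold. The 2 tables are scaled separately.

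The 3p arm was among the earliest assays on the card in the allogeneic hearts, at Ct 16.20, 16.35 and 16.67 in the 3 pools, where it was 6th or 7th in order of Ct among the detected microRNAs. In the syngeneic hearts it came up at Ct 16.99, 17.95 and 18.96, and in the normal heart at 21.25, where it was 55th of 228. In GIL its Ct was 20.60, 22.62 and 21.54 in the syngeneic pools and 19.15, 19.95 and 22.40 in the allogeneic pools, and in PBMC it was 16.14. It was 5th of 197 detected microRNAs in PBMC, and in allogeneic GIL it was 6th, 7th and 2nd. The 3p arm thus lay among the first 7 assays in PBMC and in all 6 allogeneic pools of either kind, and between 15th and 24th in the 6 syngeneic pools.

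The 5p arm came up later on every array. Its Ct was 23.42, 24.46 and 25.45 in the syngeneic hearts, 23.18, 23.76 and 23.57 in the allogeneic hearts, and 27.97 in the normal heart. In GIL it was 27.49, 28.62 and 27.55 in the syngeneic pools, 26.55, 26.69 and 28.96 in the allogeneic pools, and 23.23 in PBMC. Its place in the order of Ct was 86th in PBMC, between 117th and 129th in the allogeneic hearts, and 187th in the normal heart. Each assay has its own efficiency, so the Ct distance between the arms is not a ratio of their amounts.

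The label of the arms as leukocyte microRNAs was set against the 2 normal tissues, each a single array on its own run day, without a test. On a scale over the 133 assays detected on all 14 arrays, PBMC stood above the normal heart by 5.92 for the 3p arm and by 5.55 for the 5p arm (log2 differences). Scaled by the small RNA MammU6 these differences were 6.70 and 6.33, and by snoRNA202 5.65 and 5.28. Both arms were therefore far higher in the blood pool than in the heart pool under all 3 scalings, and both were still detected in the normal heart.

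On the 14-array scale the order of the 3p levels was PBMC at 7.00, allogeneic GIL at 5.17 ± 0.31 (SD, n = 3), allogeneic hearts at 5.17 ± 0.11, syngeneic hearts at 3.67 ± 0.35, syngeneic GIL at 3.56 ± 0.49 and the normal heart at 1.09. The 2 allogeneic groups did not differ beyond their spread, and neither did the 2 syngeneic groups. For the 5p arm the order was PBMC at -0.090, allogeneic GIL at -1.73 ± 0.70, allogeneic hearts at -1.92 ± 0.38, syngeneic GIL at -2.74 ± 0.16, syngeneic hearts at -2.81 ± 0.36 and the normal heart at -5.64. Without allogeneic GIL pool 3, on the scale of the 153 assays detected on the 13 other arrays, allogeneic GIL (n = 2) lay at 5.54 ± 0.056 for the 3p arm and -1.52 ± 0.52 for the 5p arm, just below the allogeneic hearts at 5.71 ± 0.10 and -1.39 ± 0.37. The place of the 2 allogeneic groups relative to each other thus turned with this pool, while PBMC stayed first and the normal heart last for both arms. These levels cross 2 tables run apart and are a description. In the data scaled by snoRNA202, the 3p level of allogeneic GIL pool 2 was 0.062 against 0.056 in PBMC, so PBMC was not above every GIL pool on each scale.

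**Figure D1:**
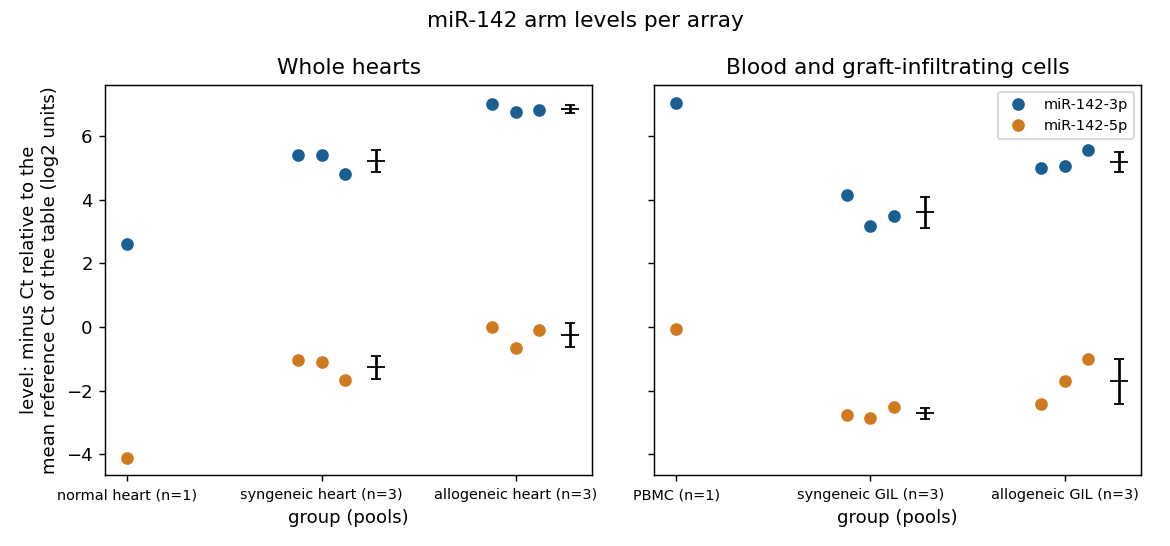
Level of each arm (minus Ct relative to the mean reference Ct of the table, log2 units) per array, in the heart table (normal heart, n = 1; syngeneic and allogeneic hearts, n = 3 each) and in the table of GIL and PBMC (PBMC, n = 1; syngeneic and allogeneic GIL, n = 3 each). Points are arrays and bars are group means with SD. For both arms each allogeneic point lies above each syngeneic point in both tables, the normal heart is lowest among hearts, and PBMC is above the mean of either GIL group.

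The comparison of rejecting with non-rejecting grafts is the main one in hearts. The 3p level was 5.40, 5.41 and 4.81 in the syngeneic hearts (5.21 ± 0.34) and 6.99, 6.74 and 6.81 in the allogeneic hearts (6.85 ± 0.13). All 3 allogeneic pools were above all 3 syngeneic pools. The 3p arm rose by 1.64 ± 0.25 (log2 difference ± SE, 95% interval 1.04 to 2.24), a 3.12-fold difference, with an adjusted p of 0.00457 by limma over 238 assays tested. Of those 238 assays, 17.2% were called higher and 15.1% lower, 32.4% were called in either direction, and in 26.5% all allogeneic pools stood above all syngeneic ones. The split of 41 higher and 36 lower moved with the scaling, to 42 and 23 with snoRNA202 and to 24 and 56 with the median of the reference assays. In order of rise the 3p arm was 23rd of the 238, and the median over all assays was 0.022.

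The 5p level was -1.02, -1.10 and -1.68 in the syngeneic hearts (-1.27 ± 0.36) and 0.0096, -0.67 and -0.086 in the allogeneic hearts (-0.25 ± 0.37). The groups again did not overlap, with allogeneic pool 2 the nearest to the syngeneic pools. The 5p arm rose by 1.02 ± 0.30 (95% interval 0.31 to 1.73), a 2.03-fold difference, with an adjusted p of 0.0419 by limma, and was 44th in order of rise. This call held without allogeneic pool 2 and was lost without each of the 5 other graft arrays, the values over the 6 arrays left out in turn being 0.82 to 1.24 with adjusted p from 0.0235 to 0.121. It held under 2 of 7 scalings, against 6 of 7 for the 3p arm, which lost its call when scaled by MammU6.

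The arrays were run on several days. In hearts 2 run days held a pool of both graft groups, and within them the allogeneic pool was above the syngeneic pool by 1.58 and 1.40 for the 3p arm and by 1.03 and 1.01 for the 5p arm (log2 differences, 1 array against 1). With run day as a fixed block the difference was 1.49 for the 3p arm and 1.02 for the 5p arm, and neither was called (adjusted p 0.0739 and 0.0875 by limma, against a range of 0.00315 to 0.0878 and of 0.0327 to 0.300 over the settings tried for each arm). That block left 2 of all assays called.

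Other microRNAs of blood and heart cells moved in the same comparison, and their part in the miR-142 result was not tested. Whole grafts are mixtures, and in such bulk samples more or fewer cells of a type and more or less RNA per cell cannot be told apart. Of 12 other microRNAs of haematopoietic cells, 4 were called higher and none lower, with a median difference of 0.62. Those were miR-147, known from activated macrophages, by 3.69, miR-342-5p by 2.36, miR-21, which is also made in many other cells, by 1.55, and miR-342-3p by 1.30. miR-155, a microRNA of activated lymphocytes and macrophages, differed by 1.10 with an adjusted p of 0.0524, and miR-150, a microRNA of resting lymphocytes, differed by -0.49 with an adjusted p of 0.124. The summed picture of this list overlapped between groups, with mean levels over its 9 always detected members between 4.07 and 4.43 in the allogeneic pools and between 3.69 and 4.12 in the syngeneic pools.

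Of 4 microRNAs listed for red cells and platelets, 2 were called higher: miR-451, which red cell precursors make, by 3.99, and miR-15b by 1.18. The other 2 were not called: miR-16 differed by 0.43 (adjusted p 0.162 by limma) and miR-486 by -0.16 (adjusted p 0.608). The mean level of these 4 lay between 2.30 and 2.86 in the allogeneic pools and between 0.91 and 1.69 in the syngeneic pools. Of 7 cardiac muscle microRNAs, 5 were called lower and none higher (median -1.67), among them miR-133a by -1.67, miR-208b by -2.29, miR-1 by -1.53 and miR-208 by -1.48. The mean cardiac level was 1.58 to 1.96 in allogeneic hearts, 3.01 to 3.51 in syngeneic hearts and 4.61 in the normal heart. Both arms of miR-126, a microRNA of endothelial cells, were called lower, at -1.64 for the 3p arm and -1.30 for the 5p arm, and so were the 2 tested microRNAs of fibroblasts, miR-199a-3p at -1.94 and miR-214 at -1.85.

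**Figure D2:**
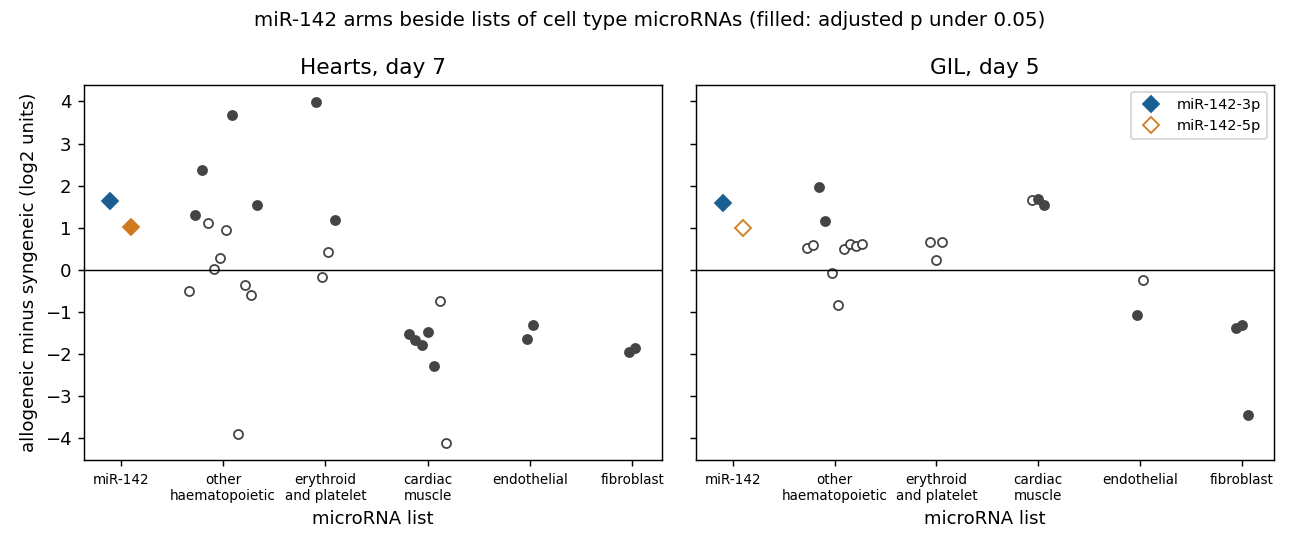
Allogeneic minus syngeneic difference (log2 units) of the miR-142 arms and of the members of 5 lists of microRNAs of cell types, in hearts and in GIL. Each point is an assay, filled where the adjusted p was under 0.05. In hearts the miR-142 arms lie above 0, as do the called members of the haematopoietic and the erythroid and platelet lists. The called cardiac, endothelial and fibroblast members lie below 0. In GIL all 3 tested cardiac members lie above 0, and 2 of them are filled.

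Against the normal heart, both arms were higher in both kinds of graft. The normal group is 1 array, whose spread is taken to be like that of the other groups. That array was the only one of its run day, so run day and group cannot be told apart in these comparisons. In syngeneic hearts the 3p arm was higher by 2.59 ± 0.35 (6.01-fold, adjusted p 0.00327 by limma) and the 5p arm by 2.84 ± 0.42 (7.14-fold, adjusted p 0.00394). Here 11.6% of 242 assays were called higher, 7.44% lower and 19.0% in either direction. In allogeneic hearts the 3p arm was higher by 4.23 ± 0.35 (18.7-fold, adjusted p 2.12e-04 by limma) and the 5p arm by 3.86 ± 0.42 (14.5-fold, adjusted p 7.38e-04), where 26.1% of 241 assays were called higher, 25.7% lower and 51.9% in either direction. Between the extremes of scaling the split of higher and lower calls went from 28 and 18 to 20 and 4 (MammU6) or 19 and 19 (quantile) for syngeneic hearts, and from 63 and 62 to 79 and 29 (snoRNA202) or 46 and 75 (quantile) for allogeneic hearts. All 4 differences of the arms were called under all 7 scalings. The 2 comparisons share the normal array.

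The donor strain of the allogeneic grafts is that of the normal heart. Syngeneic grafts, which are labelled as not rejecting, thus held several times the normal heart's level of both arms 7 days after transplant. Beside this, 3 of 12 other haematopoietic microRNAs were called higher in syngeneic hearts than in the normal heart and none lower, with a median of 1.39. Of those 3, only miR-21, higher by 3.21, was detected in the normal heart. The others were set to Ct 35 there, so their calls and the median depend on that limit. Without a call, miR-150, miR-181a and miR-181c lay lower in syngeneic hearts, and all other members lay higher. In allogeneic hearts 7 of 11 were called higher and none lower, with a median of 2.01. Those 7 include the same members undetected in the normal heart. The mean level of the red cell and platelet list was 2.25 in the normal heart, above the syngeneic grafts at 0.91 to 1.69. The mean of this list thus did not follow miR-142 across the 3 heart groups, and its members differed. In syngeneic hearts against the normal heart miR-451 differed by -2.72, miR-486 by -2.01, miR-16 by 0.062 and miR-15b by 0.71. Of these only miR-486 was called. In allogeneic hearts against the normal heart the values were 1.27, -2.17, 0.49 and 1.89, with miR-486 called lower and miR-15b higher.

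In graft-infiltrating lymphocytes the same contrast was taken on day 5. The 3p level was 4.14, 3.16 and 3.49 in the syngeneic pools (3.60 ± 0.50) and 4.98, 5.05 and 5.55 in the allogeneic pools (5.19 ± 0.31). The groups did not overlap. The 3p arm rose by 1.60 ± 0.34 (95% interval 0.76 to 2.43), a 3.02-fold difference, with an adjusted p of 0.0168 by limma over 201 assays. Of these assays 12.4% were called higher, 23.9% lower and 36.3% in either direction, and 24.4% had all allogeneic pools above all syngeneic ones. The split was 25 higher and 48 lower, against 38 and 10 with snoRNA202, 34 and 20 with MammU6 and 36 and 39 with the median. The 3p arm was 20th of 201 in order of rise, and the median over all assays was -0.24.

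The 5p level was -2.76, -2.84 and -2.51 in the syngeneic pools (-2.70 ± 0.17) and -2.42, -1.69 and -1.01 in the allogeneic pools (-1.71 ± 0.70). The groups did not overlap, and allogeneic pool 1 lay close above syngeneic pool 3. The 5p arm differed by 1.00 ± 0.39 (95% interval 0.028 to 1.97), which did not pass the threshold (adjusted p 0.0916 by limma). Without allogeneic pool 1 it was called, at 1.36 with an adjusted p of 0.0319, against a range of 0.0319 to 0.240 over the arrays left out in turn. The 3p call was lost without syngeneic pool 2, at 1.34 with an adjusted p of 0.0656, and without syngeneic pool 3, at 1.63 with an adjusted p of 0.0581, the range over arrays left out being 0.0259 to 0.0656. Without allogeneic pool 3, which stood apart in depth, the 3p difference was 1.51 with an adjusted p of 0.0259, and the 5p difference 0.75 with an adjusted p of 0.127.

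No run day held both GIL groups, so run day and group cannot be told apart there. With run day as a random block the values were 1.60 and 1.00, with adjusted p of 0.0161 and 0.0890 by limma. The 3p arm was called under all 7 scalings and the 5p arm under 1, by snoRNA202, which itself was lower in allogeneic GIL by 0.89 on the scale of the mean assay.

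**Figure D3:**
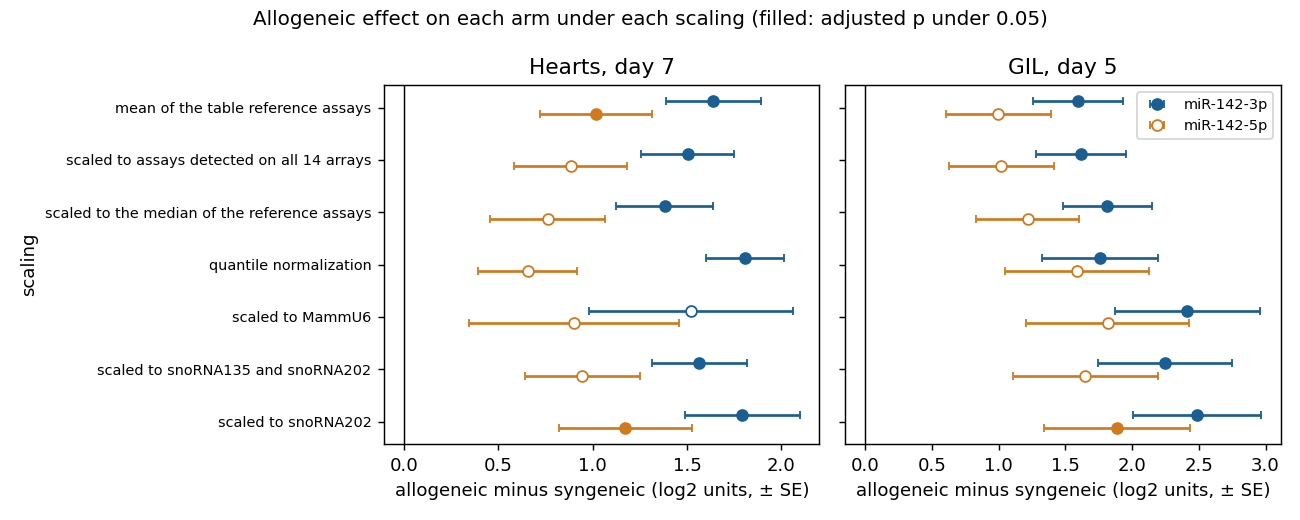
Allogeneic minus syngeneic difference of each arm (log2 units, bars are SE) under 7 scalings, in hearts and in GIL. Filled points have an adjusted p under 0.05. All 28 values lie above 0. The 3p arm spans 1.38 to 1.81 in hearts and 1.60 to 2.49 in GIL, and the 5p arm spans 0.66 to 1.17 and 1.00 to 1.89.

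Beside miR-142 in GIL, 2 of 10 tested haematopoietic microRNAs were called higher and none lower (median 0.58), namely miR-155 by 1.98 and miR-146a, which is induced by inflammatory signalling, by 1.16. Of 3 tested cardiac microRNAs 2 were called higher, miR-133a by 1.67 and miR-133b by 1.54. The mean level of the 2 cardiac assays detected on all arrays was 2.80 to 4.58 in allogeneic GIL, 1.86 to 2.26 in syngeneic GIL and -5.55 in PBMC. All 3 tested fibroblast microRNAs were called lower in allogeneic GIL (median -1.38), and the always detected one had levels of 1.66 to 2.87 in allogeneic GIL, 3.52 to 3.95 in syngeneic GIL and -4.87 in PBMC. Both GIL groups thus held cardiac and fibroblast microRNAs far above their level in the blood pool, and in the 2 lists the order of the GIL groups was opposite. Of the endothelial pair, miR-126-3p was called lower in allogeneic GIL by -1.07 (adjusted p 0.0478 by limma), and miR-126-5p, at -0.24, was not called. None of the 3 tested red cell and platelet microRNAs was called (median 0.67). Leaving out allogeneic pool 3, no member of these last 2 lists was called. Without allogeneic pool 3, 3 of 11 haematopoietic microRNAs were called higher (miR-342-5p beside miR-155 and miR-146a), 2 of 5 cardiac ones (miR-133a and miR-499) and 2 of 3 fibroblast ones lower (miR-199a-3p and miR-214), and the median over all assays was 0.056. Of the microRNAs called without allogeneic pool 3, miR-342-5p was detected in 0 of 3 syngeneic GIL pools and miR-499 in 1 of 3. Undetected wells were set to the Ct detection limit, so the calls of miR-342-5p and miR-499 depend on that limit. The part of all these listed microRNAs in the miR-142 result was not tested.

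Against PBMC, which is 1 array, both arms were lower in GIL. The PBMC array was the only one of its run day, so run day and group cannot be told apart in these comparisons. In syngeneic GIL the 3p arm differed by -3.45 ± 0.49 (adjusted p 0.00233 by limma) and the 5p arm by -2.65 ± 0.57 (adjusted p 0.00952), where 31.9% of 229 assays were called lower, 28.8% higher and 60.7% in either direction, and the median over all was -0.77. In allogeneic GIL the 3p arm differed by -1.85 ± 0.48 (adjusted p 0.0226 by limma) and the 5p arm by -1.65 ± 0.57 (adjusted p 0.04997), where 35.8% of 212 assays were called lower, 22.2% higher and 58.0% in either direction, and the median was -1.19. The split of higher and lower calls, 66 and 73 for syngeneic and 47 and 76 for allogeneic GIL, was 63 and 31, and 54 and 9, with snoRNA202. The allogeneic difference was called under 2 of 7 scalings for the 3p arm and 1 of 7 for the 5p arm, and for the 3p arm it turned to 0.10 under quantile scaling. Without allogeneic pool 2 the 3p call was lost, at -1.78 with an adjusted p of 0.0554, against a range of 0.0207 to 0.0554 over the arrays left out in turn. The 5p call was lost without each of 5 of the 6 GIL arrays (adjusted p from 0.0545 to 0.0912) and held without allogeneic pool 3 alone. Without that pool the allogeneic differences from PBMC were -1.91 (3p, adjusted p 0.0207 by limma) and -1.88 (5p, adjusted p 0.0152), and the syngeneic ones -3.42 and -2.63 (adjusted p 0.00219 and 0.00345).

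Those comparisons share the PBMC array, and the same GIL pools were rich in microRNAs that the blood pool nearly lacked. In syngeneic GIL all 3 tested cardiac microRNAs (median 7.58) and all 3 fibroblast microRNAs (median 9.62) were called higher than in PBMC, and in allogeneic GIL the medians were 9.24 and 8.31, with all 3 of each called. Several of these are undetected in PBMC, so the medians and their calls depend on the limit of Ct 35. Of 11 haematopoietic microRNAs tested, 5 were called lower and 1 higher in syngeneic GIL, and 4 lower and 2 higher in allogeneic GIL. Those called higher include miR-147 in both comparisons, which was undetected in PBMC. Those called lower in syngeneic GIL include miR-342-5p, which was detected in 0 of 3 syngeneic pools. These calls of miR-147 and miR-342-5p also depend on the limit of Ct 35. The 3 tested members of the red cell and platelet list (miR-451, miR-16 and miR-15b) were called lower in both. Without allogeneic pool 3, 1 of these 3 (miR-15b) was called lower in allogeneic GIL, with 3 of 11 haematopoietic microRNAs lower and 2 higher. In that fit 5 of 5 cardiac and 3 of 3 fibroblast ones were called higher. The cardiac ones include miR-133b, miR-208 and miR-499, which were undetected in PBMC and set to Ct 35 there.

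No difference of the allogeneic effect between GIL and whole grafts was called for either arm. The effect in GIL minus that in hearts was -0.043 ± 0.41 for the 3p arm (95% interval -0.96 to 0.87, adjusted p 0.925 by limma) and -0.020 ± 0.50 for the 5p arm (95% interval -1.13 to 1.09, adjusted p 0.969). The intervals reach about 1 log2 unit either way. Hearts were taken on day 7 and GIL on day 5, so sample type and day cannot be told apart.

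Because both arms come from 1 precursor and are read on the same array, the gap between them (Ct of the 5p arm minus Ct of the 3p arm) does not depend on any scaling. It was 6.43, 6.51 and 6.49 cycles in the syngeneic hearts (6.48 ± 0.041), 6.98, 7.41 and 6.90 in the allogeneic hearts (7.10 ± 0.28), and 6.72 in the normal heart. The 2 graft groups did not overlap, and the normal heart lay between them. How many other arm pairs also separated the graft groups was not counted. By size of change miR-142 was 7th of the 16 arm pairs tested in hearts. In GIL the gap of miR-142 was 6.90, 6.00 and 6.00 in the syngeneic pools (6.30 ± 0.52), 7.39, 6.73 and 6.56 in the allogeneic pools (6.90 ± 0.44), and 7.09 in PBMC. There, syngeneic pool 1 lay above 2 of the 3 allogeneic pools.

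In hearts the gap was wider in allogeneic pools by 0.62 ± 0.34 cycles (95% interval -0.087 to 1.33), which did not pass the test (adjusted p 0.211 by limma over 16 arm pairs). The exact two-sided permutation test gave p = 0.1, the smallest that 3 against 3 allows. In GIL it was wider by 0.60 ± 0.36 cycles (adjusted p 0.296 by limma over 6 arm pairs, exact permutation p = 0.3). The mean of the 2 differences was 0.61 cycles, with an exact two-sided permutation p of 0.015 over 400 arrangements within tables, where 0.005 is the smallest possible, and an adjusted value of 0.045 over the 3 exact tests of the gap. Those 3 tests share the same miR-142 values, and the test over both tables was not run on other arm pairs. The adjustment thus does not cover the choice of this pair. In GIL run day and group cannot be told apart, which holds for this test too. Without allogeneic GIL pool 3 the GIL difference was 0.76 cycles (adjusted p 0.205 by limma) and the mean over both tables was 0.69 cycles with an exact permutation p of 0.015. Without allogeneic GIL pool 1 the mean was 0.48 cycles with an exact permutation p of 0.06. Within the 2 shared run days the gap in hearts was wider by 0.55 and 0.39 cycles.

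**Figure D4:**
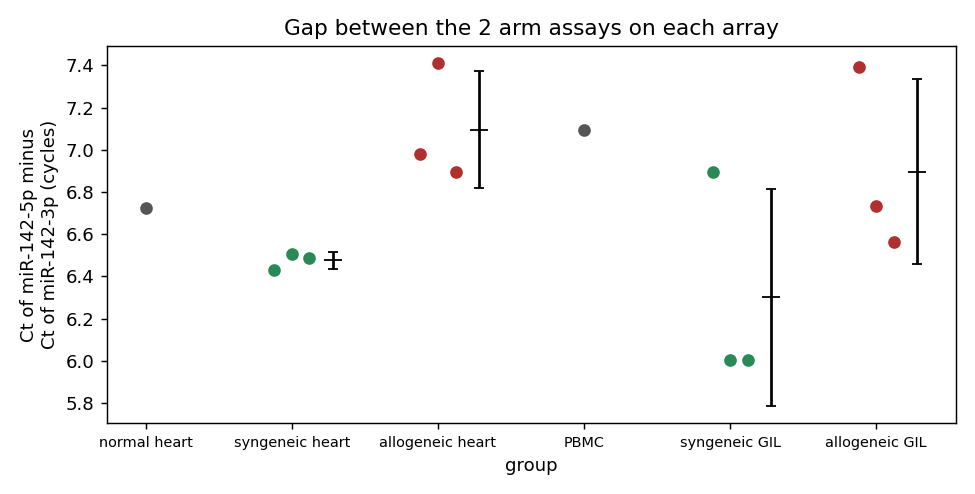
Ct of miR-142-5p minus Ct of miR-142-3p (cycles) on each of the 14 arrays, by group, with group means and SD where n = 3. The syngeneic hearts lie at 6.43 to 6.51 and the allogeneic hearts at 6.90 to 7.41, while the syngeneic and allogeneic GIL overlap.

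The card holds 36 pairs of arm assays of 1 hairpin, and those detected on all arrays of a table, 16 in hearts and 6 in GIL, show how arm gaps moved in general. The gap is signed, negative where the 5p assay came up first, and a positive change says that the 5p Ct moved up relative to the 3p Ct. In hearts 1 of 16 pairs was called, miR-125b, whose signed gap moved by 1.83 cycles, from -10.18 in syngeneic to -8.35 in allogeneic pools, and 3 had an unadjusted p under 0.05. In GIL 1 of 6 was called, miR-126, whose gap changed by -0.83 cycles, from 3.803 to 2.97. Without allogeneic pool 3 the call of miR-126 was lost, and 1 of 8 pairs, miR-335, was called. Over these pairs the median change was -0.052 cycles in hearts and 0.23 in GIL. In order of signed change from the most positive, miR-142 was 5th of 16 in hearts and 2nd of 6 in GIL. Of the 6 pairs measured in both tables, the signed gap of miR-125a changed by 0.94 cycles in hearts (-6.72 to -5.77) and by 0.93 in GIL (-4.25 to -3.33), beside miR-142 at 0.62 and 0.60, values given as a description. The gap of miR-125a is negative and came nearer to 0, while that of miR-142 is positive and went farther from it.

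The closest profiles were found by centring each assay on its mean over the 7 arrays of a table and taking the root-mean-square difference. In hearts the assays nearest to the 3p arm were miR-21 at 0.308, miR-467b at 0.309, the 5p arm at 0.324, miR-467a at 0.345 and miR-18a at 0.348 (log2 units, with a median of 1.54 over all 209 others). Nearest to the 5p arm were the 3p arm at 0.324, miR-18a at 0.351, miR-21 at 0.441, miR-467b at 0.504 and miR-543 at 0.578. Between allogeneic and syngeneic hearts miR-21, miR-467b, miR-467a and miR-18a rose, by 1.55, 1.90, 2.24 and 1.28, and miR-543 differed by 0.61 without passing the test.

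In GIL and PBMC the nearest to the 3p arm were miR-20b at 0.186, miR-18a at 0.388, miR-20a at 0.398, miR-130b at 0.405 and miR-92a at 0.415, and the 5p arm was 8th of 136 at 0.487. Nearest to the 5p arm were miR-19a at 0.239, miR-20a at 0.310, miR-301a at 0.320, miR-19b at 0.332 and miR-101a at 0.357, and the 3p arm was 19th. Several of these, miR-18a, miR-19a, miR-20a, miR-19b and miR-92a, are members of the miR-17-92 cluster. Between allogeneic and syngeneic GIL miR-20b, miR-18a, miR-130b, miR-20a, miR-92a and miR-19a rose, by 1.44, 2.28, 2.12, 0.89, 0.93 and 0.94, while miR-19b at 0.61, miR-301a at 0.48 and miR-101a at 0.42 did not pass the test. Without allogeneic pool 3, miR-20b stayed the nearest to the 3p arm at 0.201, with 3 of the 5 nearest shared, and 4 of the 5 nearest to the 5p arm were shared, with miR-29b first at 0.104. The other arm was then 13th of 156 from the 3p arm and 38th from the 5p arm. The calls of miR-20a and miR-92a were lost without that pool, at 0.83 and 0.86 with an adjusted p of 0.0625 each. Each arm was thus among the 3 nearest to the other in hearts and farther down the order in GIL, a description over 7 arrays that share groups.

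The study's own scale is the relative quantity against the normal array, after subtraction of snoRNA202. In the authors' deposited table the 3p arm had relative quantities of 10.2, 8.79 and 6.05 in the syngeneic hearts and 24.9, 26.2 and 34.6 in the allogeneic hearts. The authors' deposited table gives 12.5, 10.2 and 7.12 against 20.8, 16.3 and 30.7 for the 5p arm. In GIL, relative to PBMC, the authors' deposited table gives 0.174, 0.086 and 0.138 against 0.51, 1.00 and 0.71 for the 3p arm, and 0.20, 0.183 and 0.294 against 0.414, 1.29 and 1.03 for the 5p arm. On that scale too, the allogeneic values do not overlap the syngeneic values for either arm in either table, and 2 allogeneic GIL pools exceed PBMC in the 5p arm. The share of all assays without overlap on that scale is not given here. Scaling by snoRNA202 moved the median difference over all assays by 0.89 in GIL (38 called higher and 10 lower). In hearts it moved by 0.15 (42 higher and 23 lower).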

How the data were processed

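MicroRNAs were measured by real-time PCR on TaqMan rodent microRNA cards after reverse transcription and preamplification, per the labels' protocols. The deposited tables are exports of SDS 2.4, per the file headers, and give the threshold cycle (Ct) per well. They also give, per the file headers, the average delta Ct, a log2 value relative to snoRNA202, and the relative quantity, a ratio to the normal array that the authors' software computed. Wells were matched to samples by name, and 1 well under another sample name was left out. Preamplification and its effect on the levels were not tested.

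Undetermined or late wells were set to Ct 35. Levels are minus Ct relative to a reference, the mean Ct of those microRNA assays with a Ct under 35 in each of the 7 arrays of a table. An assay was tested when detected on all arrays of at least 1 group compared. limma 3.58.1 in R 4.3.3 was fitted to all 7 arrays of a table (4 residual degrees of freedom), with Benjamini-Hochberg adjustment over all assays tested and a threshold of 0.05. The difference between tables was fitted jointly with 8 residual degrees of freedom. Arm gaps were tested with limma over arm pairs and with exact permutation tests in Python 3.11.15 (SciPy 1.17.1). The hairpin was folded with RNAfold 2.7.2. The fit was tested on simulated data. The number of arrays limits the precision.

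The members and lists were chosen with earlier results of these data known. Named beside the 2 arms were the 5 nearest profiles per arm and table, and from each list up to 4 called members by smallest p and up to 2 that were not called, control assays and arm pairs. The alternatives were scalings, the detection limit, filters, run day, the replicate number and leaving out arrays, the lists, levels and nearest profiles without allogeneic GIL pool 3 being added after seeing the data.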

Additional observations from a re-analysis of the deposited data

How the results depend on the processing

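The allogeneic rise of miR-142-3p in hearts lost its call with MammU6 scaling (1.52) and when run day was a fixed block (1.49). For miR-142-5p in hearts the call was lost with MammU6 (0.90), the snoRNA pair (0.95), the median (0.76), quantile scaling (0.66), the 14-array reference (0.88), no filter (1.02) and run day as a fixed block (1.02). Replicate numbers did not pair the samples: correlations of same-numbered pools were -0.043, -0.29 and 0.12 in hearts and 0.19, 0.23 and -0.16 in GIL. With the replicate number as a block, the heart 5p value was 1.02 without a call, 46 heart assays were called, and the other miR-142 calls between graft groups were kept. The count of called heart assays fell to 34 with MammU6 and to 2 with run day as a fixed block. In GIL, 31 assays were called with the snoRNA pair and 48 with snoRNA202, where miR-142-5p gained a call (1.89). MammU6 left 24 calls for syngeneic hearts and 58 for allogeneic hearts against the normal heart. In syngeneic GIL against PBMC the 5p call was lost with the snoRNA pair (-2.32) and snoRNA202 (-2.18), and the 3p call with quantile scaling (-1.66). In allogeneic GIL against PBMC the 3p call was lost with MammU6 (-2.12), the snoRNA pair (-0.86), snoRNA202 (-0.49) and the median (-1.39), and turned with quantile scaling (0.10). The 5p call was lost with MammU6 (-1.93), the snoRNA pair (-0.67), snoRNA202 (-0.29), the median (-1.20), quantile scaling (-1.13), the 14-array reference (-1.64), a Ct limit of 32 (-1.44), no filter (-1.65) and run day as a random block (-1.65), and 62 and 63 assays were called with the snoRNA pair and snoRNA202. The difference of the allogeneic effect between GIL and hearts, which never passed the test, changed sign for the 3p arm with MammU6 (0.89), the snoRNA pair (0.68), snoRNA202 (0.69), the median (0.43) and the 14-array reference (0.11), and for the 5p arm with these (0.92, 0.70, 0.72, 0.46 and 0.13) and quantile scaling (0.93). The cause of these changes was not tested. Relative to the main scale, the median of all assays between graft groups moved in GIL by 0.82 (MammU6), 0.65 (snoRNA pair) and 0.89 (snoRNA202), and in hearts by -0.12, 0.15 and -0.26 (MammU6, snoRNA202 and the median).

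With each array left out in turn, the heart difference was 1.45 to 1.74 (3p) and 0.82 to 1.24 (5p) with 42 to 81 assays called, and the GIL difference 1.34 to 1.87 (3p) and 0.75 to 1.36 (5p) with 40 to 73. Against the normal heart these were 2.49 to 2.80, 2.71 to 3.06 and 31 to 55 calls for syngeneic hearts, and 4.16 to 4.30, 3.73 to 4.08 and 103 to 128 for allogeneic hearts. Against PBMC they were -3.72 to -3.19, -2.82 to -2.55 and 128 to 156 for syngeneic GIL, and -1.91 to -1.74, -1.88 to -1.30 and 103 to 142 for allogeneic GIL. The difference between tables was -0.30 to 0.23 (3p) and -0.27 to 0.34 (5p). The arm gap widened by 0.46 to 0.72 cycles in hearts, 0.35 to 0.89 in GIL and 0.48 to 0.76 over both. Replicate and fixed run-day blocks could not be fitted for contrasts with the single normal arrays, nor the fixed run-day block in GIL.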

Other observations

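Of the 6 pairs of arm assays measured in both tables, miR-142 and miR-125a had a positive change of the signed gap (Ct of the 5p arm minus Ct of the 3p arm) in both, a description without a test. The signed gap of miR-331 changed between syngeneic and allogeneic pools by -0.12 cycles in hearts and -0.38 in GIL, that of miR-340 by -0.35 and 0.0082, and that of miR-532 by -0.15 and 0.46. The gap of miR-126 changed by -0.33 cycles in hearts.

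Between allogeneic and syngeneic pools, relative to the mean of the reference assays, the control RNA MammU6 differed by 0.12 in hearts and -0.82 in GIL, and snoRNA202 by -0.15 and -0.89 (log2 differences).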
